A study of Gallus gallus with 40 samples.

Results

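Fatty acid elongases of the ELOVL family were followed in the chorioallantoic membrane of chicken embryos, the vascular membrane under the eggshell that serves gas exchange and ion transport. The members were the genes that the annotation of the chicken genome build GRCg6a names ELOVL1 to ELOVL7, which are 7 of the 26152 genes in the deposited table; 6 of them were among the 15880 genes that passed the filter on low values. All embryos were Ross 308 broilers, a fast-growing meat chicken, from eggs stored for 3 days before incubation, and none was treated. They fell into 4 groups of 10: males at 15 days of incubation, females at 15 days, males at 11 days and females at 11 days, each library carrying a number of its own in its title. That number is taken here as an embryo number, which the labels do not state. The values imply 28.3 to 49.2 M reads per library (median 35.4 M). The membrane was sequenced as whole tissue, and the libraries held epithelial (EPCAM, CDH1), endothelial (PECAM1) and red cell (HBA1) transcripts. The 12 liver and yolk sac markers, led by APOA1, summed to 84.8 to 285 FPKM in day 15 males and 89.9 to 852 in day 15 females, against 303 to 943 in day 11 males and 233 to 808 in day 11 females, while 7 of them, among them APOB and FGA, did not pass the filter.

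ELOVL enzymes sit in the endoplasmic reticulum and catalyse the condensation that opens each round of fatty acid elongation, the step that sets its rate and its choice of substrate. A ketoacyl reductase (HSD17B12), a dehydratase (HACD1 to HACD4) and an enoyl reductase (TECR) then complete the round and serve every ELOVL enzyme. By work mainly in mammals, ELOVL1, ELOVL3, ELOVL6 and ELOVL7 lengthen saturated and monounsaturated chains, ELOVL2 and ELOVL5 lengthen polyunsaturated chains, and ELOVL4 makes the longest chains of both kinds. The products enter ceramides, phospholipids, waxes and triglycerides, and very long saturated chains are part of the water barrier of mammalian skin.

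ELOVL1, ELOVL5 and ELOVL7 were the most abundant members on both days, and ELOVL3, low at day 11, stood near ELOVL6 at day 15. In FPKM, which divide by the annotated length of each gene, ELOVL1 was highest in every group. The order of genes rests on those lengths, and any other bias constant for a gene was not corrected. It averaged 74.8 ± 5.92 FPKM in day 15 males, 82.97 ± 8.65 in day 15 females, 71.3 ± 3.65 in day 11 males and 73.2 ± 6.16 in day 11 females (SD, n = 10 each). Its level exceeded that of 93.1% of 13200 tested protein-coding genes at day 15 and of 92.1% at day 11. ELOVL5, ELOVL7 and ELOVL6 followed in that order in all 4 groups. ELOVL3 and ELOVL4 changed places, with ELOVL3 above ELOVL4 in all 10 day 15 libraries of each sex and below it in 9 of 10 day 11 libraries of each sex.

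Neighbours in the order of levels were compared within libraries by exact two-sided sign-flip permutation tests. These used log2(FPKM + 0.1) of the scaled libraries, in 20 comparisons, and a bias constant for a gene would enter them unchanged. In 18 of them the levels differed (adjusted p at most 0.00868, n = 10 each). The exceptions were ELOVL6 against ELOVL3 at day 15, which differed by a mean of 0.19 ± 0.75 on the log2 scale in males (SD; exact adjusted p = 0.445, ELOVL6 higher in 4 of 10) and by 0.54 ± 0.79 in females (exact adjusted p = 0.0720, ELOVL6 higher in 7 of 10).

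**Figure D1:**
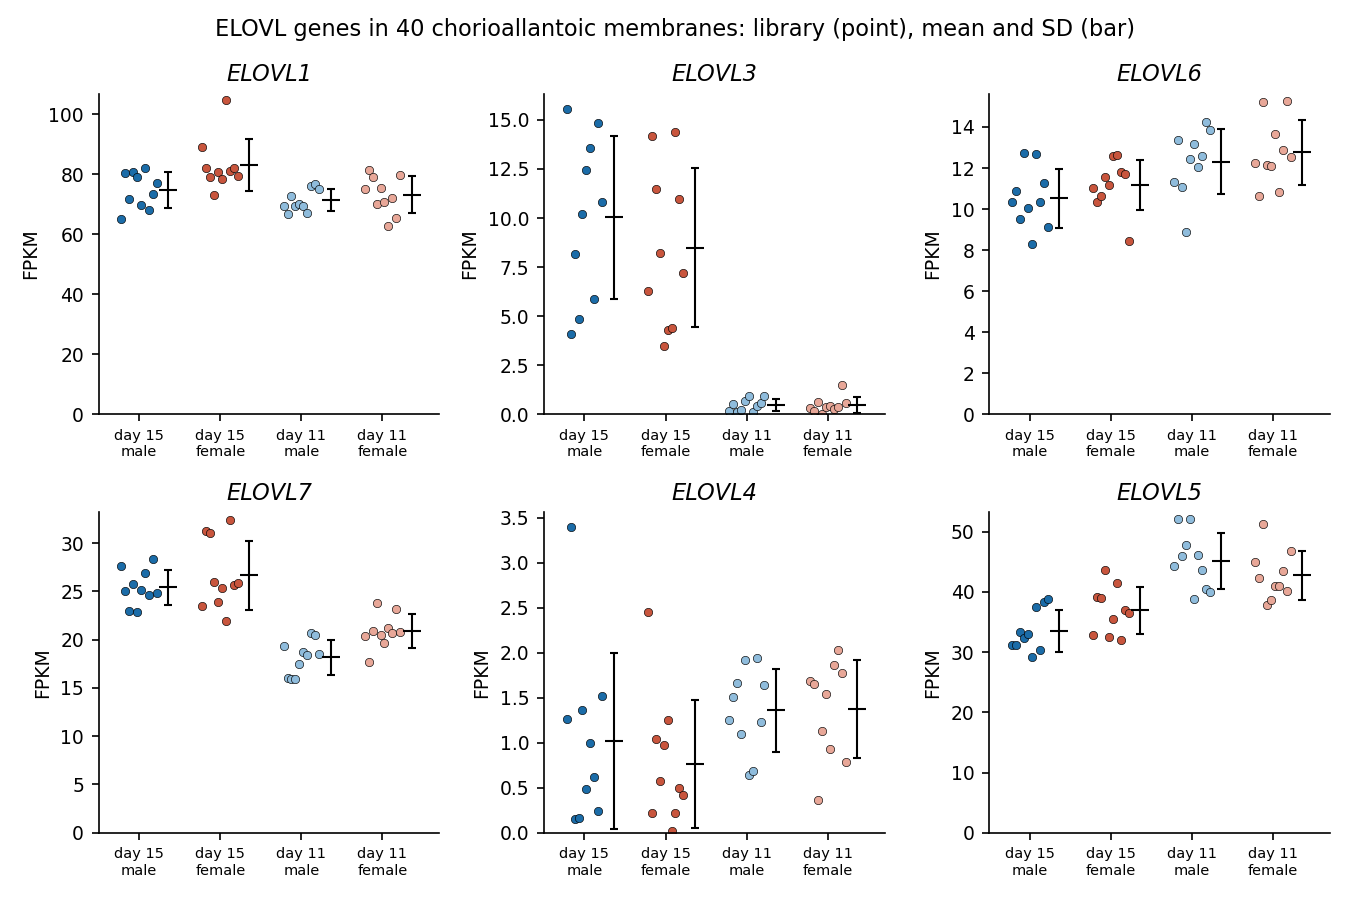
FPKM of the 6 tested ELOVL genes on linear axes that start at 0, 1 point per library, with the mean and SD of each group of 10 beside its points. ELOVL3 does not overlap between the days in either sex, and ELOVL7 does not overlap in males. The share of all tested genes without such overlap was not computed. The ELOVL4 points spread far more at day 15 than at day 11.

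Summed over the family, the members reached 155 ± 10.3 FPKM in day 15 males, 167 ± 9.95 in day 15 females, 149 ± 4.92 in day 11 males and 151 ± 8.54 in day 11 females (SD, n = 10 each). ELOVL1 took 48.2 ± 2.89% and 49.7 ± 3.84% of that sum in day 15 males and females, against 47.9 ± 1.94% and 48.3 ± 2.42% in day 11 males and females. The share of ELOVL5 was 21.6% in males and 22.1% in females at day 15, against 30.4% and 28.2% at day 11. ELOVL7 held 16.4% in males and 16.0% in females at day 15, and 12.2% and 13.9% at day 11. ELOVL3 held 6.43% in males and 5.04% in females at day 15, and 0.316% and 0.302% at day 11.

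**Figure D2:**
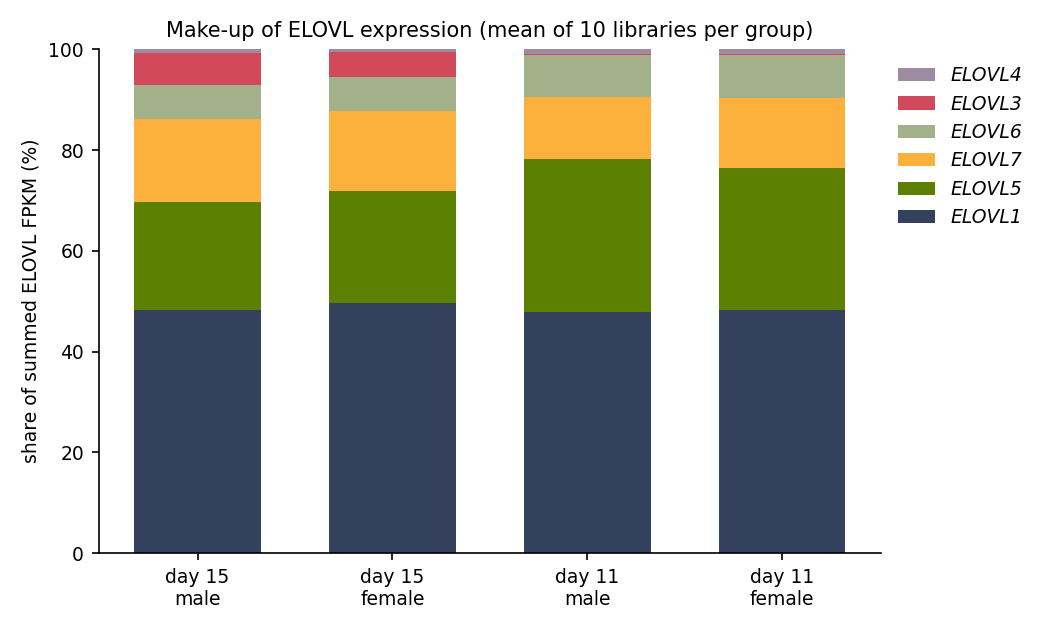
Mean share of each ELOVL gene in the summed ELOVL FPKM of a library, in percent, for 10 libraries per group. ELOVL1 stays between 47.9 and 49.7%, while ELOVL5 takes a smaller and ELOVL7 and ELOVL3 a larger share at day 15.

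The first comparison was between day 15 and day 11, averaged over the sexes. By limma all 6 tested members passed a Benjamini-Hochberg adjusted p of 0.05: ELOVL3, ELOVL7 and ELOVL1 rose, and ELOVL4, ELOVL5 and ELOVL6 fell. That count has to be read against the whole table, in which 60.2% of tested genes differed, 30.9% higher and 29.3% lower. A change of at least 2-fold was rarer, with 8.47% of tested genes, and of the members ELOVL3 reached it. Whether ELOVL4 did depended on the pseudocount: its change was -0.91 with 0.1, -0.39 with 1 (adjusted p = 0.0178), and -1.13 both with 0.01 (adjusted p = 0.0105) and with voom weights on the implied reads (adjusted p = 0.00601). Fewer cells of a type and less RNA per cell cannot be told apart in such bulk samples. In the sexes taken singly, 4 of the 6 members were called in males (47.7% of all tested genes) and 4 of 6 in females (45.7%).

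Among the enzymes of saturated and monounsaturated chains, ELOVL3 rose most. This enzyme is known in mice from sebaceous glands, brown fat and liver. Its gene (ENSGALG00000025772, chromosome 6, 17632410 to 17636794, plus strand, 4 exons) had 4.09 FPKM in the lowest, 10.5 in the median and 15.6 in the highest day 15 male, against 0.134, 0.473 and 0.921 FPKM in day 11 males. Day 15 females had 3.48, 7.72 and 14.4 FPKM, against 0, 0.368 and 1.48 FPKM in day 11 females. Every day 15 library lay above every day 11 library of its sex. How many of all tested genes separate the days in this way was not computed. The counts behind these levels were 204 to 952 reads per library at day 15 and 0 to 82 reads at day 11.

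The log2 fold change of ELOVL3 was 4.19 ± 0.25 (SE, limma adjusted p = 8.73e-18), rank 5 among the increases of all tested genes with a pseudocount of 0.1. It was 4.25 ± 0.35 in males (adjusted p = 5.20e-13) and 4.13 ± 0.35 in females (adjusted p = 1.41e-12). Because fold changes were taken on log2(FPKM + 0.1), they understate the change of a gene this low at day 11. The rank under other settings was not computed. The ratio of mean FPKM was 21.3 in males and 18.5 in females, and the fitted change ranged from 2.75 with a pseudocount of 1 to 4.70 with voom weights on the implied reads. At day 15 the levels of single embryos still spread 4.47-fold from the lowest to the highest library, with a coefficient of variation of 44.04%.

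ELOVL7, listed above with the enzymes of saturated and monounsaturated chains, also rose, by a smaller step. The gene (ENSGALG00000014730, chromosome Z, 18876427 to 18908652, minus strand) had 22.9, 25.1 and 28.3 FPKM in the lowest, median and highest day 15 male, against 15.9, 18.5 and 20.7 FPKM in day 11 males. In females the values were 21.98, 25.7 and 32.4 FPKM at day 15, against 17.7, 20.8 and 23.8 FPKM at day 11. The days did not overlap in males, and 8 of 10 day 15 females lay above all day 11 females. Such separation was not counted over all tested genes, of which 47.7% were called between the days in males. Its log2 fold change was 0.45 ± 0.04 (SE; limma adjusted p = 1.25e-11), with 0.52 ± 0.06 in males and 0.38 ± 0.06 in females.

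ELOVL1, whose very long saturated products feed ceramide synthesis, was higher at day 15 by 0.16 ± 0.04 on the log2 scale (limma adjusted p = 0.00104), a step of 1.12-fold. The gene lies on chromosome 8 (ENSGALG00000009988, 20037114 to 20049506, minus strand). In males it had 65.2, 75.2 and 82.1 FPKM in the lowest, median and highest library at day 15, against 66.8, 69.9 and 76.8 FPKM at day 11, and the change of 0.10 ± 0.06 was not called (adjusted p = 0.150). In females it had 73.0, 80.9 and 104.8 FPKM at day 15, against 62.6, 73.6 and 81.4 FPKM at day 11, and the change of 0.22 ± 0.06 was called (adjusted p = 0.00240). The groups overlapped in both sexes. The highest value belongs to replicate 83 of the day 15 females, a library that stands apart from its group. Without it the averaged change was 0.13 ± 0.04 (adjusted p = 0.00351).

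ELOVL6, which turns palmitate into stearate, fell slightly, by 0.17 on the log2 scale (SE 0.05; limma adjusted p = 0.00526). The gene (ENSGALG00000054319, chromosome 4, 57922324 to 57987408, plus strand) averaged 10.5 ± 1.43 FPKM in day 15 males and 11.2 ± 1.22 in day 15 females, against 12.3 ± 1.58 in day 11 males and 12.8 ± 1.58 in day 11 females (SD, n = 10 each). Most libraries overlapped between the days. The change was called in males (-0.19 ± 0.07, adjusted p = 0.0332) and not in females (-0.15 ± 0.07, adjusted p = 0.0959), and both verdicts sit near the threshold. The male call was lost without day 11 replicate 16 or day 15 replicate 67, 81 or 100 (adjusted p 0.0510 to 0.0691) and under 2 of 13 other settings (0.0119 to 0.250 over all 13). The female change was called without day 11 replicate 29 (adjusted p = 0.0498) or day 15 replicate 83 (0.0341). A gene on the opposite strand, ENSGALG00000054435, overlaps ELOVL6 with 0 bp of shared exon.

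Of the enzymes of polyunsaturated chains, ELOVL5 fell and ELOVL2 was barely detected. ELOVL5 (ENSGALG00000016314, chromosome 3, 88246591 to 88283573, plus strand) had 29.3, 32.6 and 38.8 FPKM in the lowest, median and highest day 15 male, against 38.8, 45.2 and 52.1 FPKM in day 11 males. Day 15 females had 32.1, 36.7 and 43.7 FPKM, against 37.9, 41.7 and 51.3 FPKM in day 11 females. In males 9 of 10 day 15 libraries lay below all day 11 libraries, and in females 6 of 10 did. How many of all tested genes separate to this extent was not computed. Between the days 47.7% of tested genes were called in males and 45.7% in females. The averaged log2 fold change of ELOVL5 was -0.28 ± 0.05 (SE; limma adjusted p = 1.18e-05). In males it was -0.39 ± 0.07 (adjusted p = 2.61e-05), and in females -0.17 ± 0.07, which missed the threshold (adjusted p = 0.0527). The female change was called when any of 20 of the 40 libraries was left out (adjusted p 0.0207 to 0.101 over all 40) and under 7 of 13 other settings (0.00682 to 0.276). Male libraries were among these 20. They enter the female change only through the scaling, the shared spread and the adjustment, all estimated anew in each run. Without day 11 male replicate 7, for example, it was -0.19 (limma adjusted p = 0.0336).

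ELOVL2, which in mammals extends polyunsaturated chains beyond the reach of ELOVL5 on the route to docosahexaenoic acid, was not tested. Its gene (ENSGALG00000012748, chromosome 2, 63142207 to 63181112, plus strand) had 4 reads in replicate 95 of the day 15 females and 1 read in replicate 44 of the day 11 males. The other 9 libraries of each of these groups, all 10 day 15 males and all 10 day 11 females had 0 reads. A count of 0 allows a level of up to 0.0612 to 0.107 FPKM, the worth of 3 reads in the deepest and the shallowest library. This limit covers counting error only.

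ELOVL4, known for ultra-long chains in mammalian retina, skin and testis, was the most uneven tested member at day 15. The gene (ENSGALG00000015876, chromosome 3, 79270155 to 79302116, plus strand) had 0.151, 0.807 and 3.39 FPKM in the lowest, median and highest day 15 male, against 0.638, 1.38 and 1.94 FPKM in day 11 males. Day 15 females had 0.0161, 0.538 and 2.45 FPKM, against 0.359, 1.59 and 2.03 FPKM in day 11 females. The day 15 libraries reached both below and above the day 11 range in each sex. Its coefficient of variation was 94.4% over 20 libraries at day 15 and 35.9% at day 11, when that of ELOVL3 was 74.3%. The read counts ran from 1 to 194 per library at day 15 and from 19 to 118 at day 11.

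The averaged log2 fold change of ELOVL4 was -0.91 ± 0.30 (SE; limma adjusted p = 0.00923). It was -1.07 ± 0.43 in females (adjusted p = 0.0383) and -0.75 ± 0.43 in males (adjusted p = 0.151). The female call was lost without replicate 83, which had 1 read (-0.81, adjusted p = 0.0979), and the leaving out of any of 11 single libraries undid it. Of the 13 alternative settings, the run without replicate 83 among them, 5 also lost the call (limma adjusted p 0.0274 to 0.248 over all 13). Leaving out day 15 male replicate 57, the highest library, brought the male change to -0.98 (adjusted p = 0.0487).

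**Figure D3:**
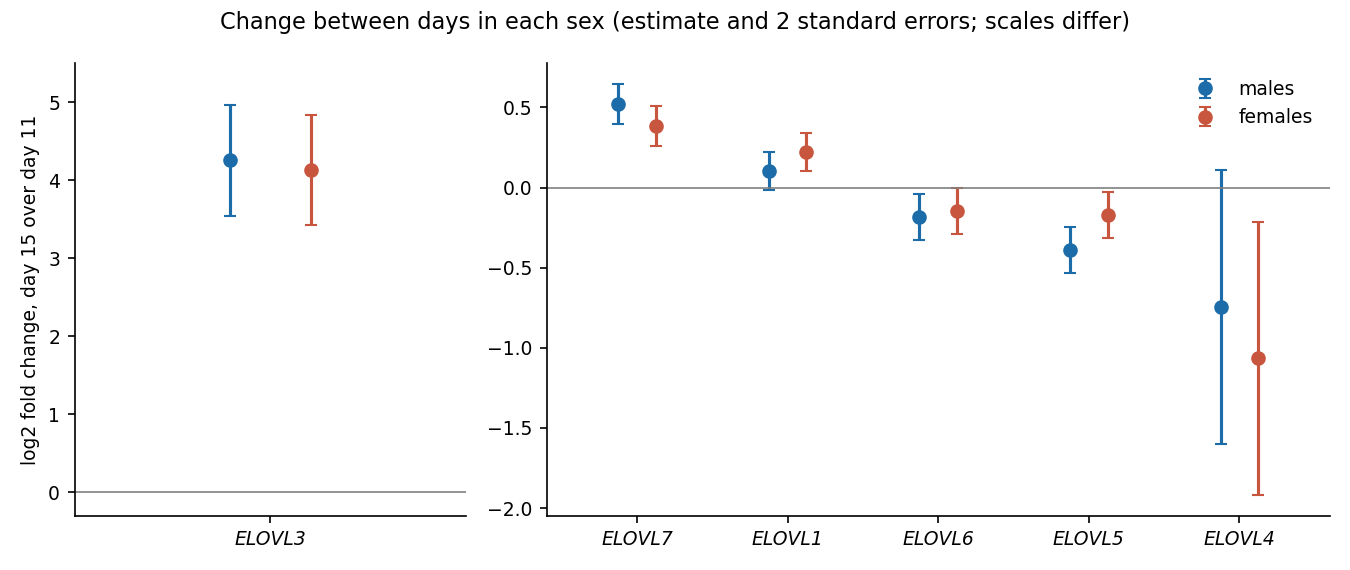
Log2 fold change of day 15 over day 11 for each tested ELOVL gene in males and in females, with bars of 2 standard errors; the left panel has a wider scale for ELOVL3. ELOVL3 sits at 4.25 in males and 4.13 in females, and all other members lie between 0.52 and -1.07.

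None of the 6 members differed between the sexes in its change with day (0.0252% of tested genes did). The only one with an unadjusted p below 0.05 was ELOVL5, whose male change minus female change was -0.22 ± 0.10 on the log2 scale (SE; limma unadjusted p = 0.0404, adjusted p = 1.00). The share of all tested genes at that unadjusted cut was not computed. For ELOVL3 the same difference was 0.12 ± 0.50, with an interval of 2 standard errors from -0.88 to 1.12. The values are compatible with a difference between the sexes anywhere in that interval. A call after adjustment over all tested genes would have needed a difference well beyond 2 standard errors.

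Day 11 libraries follow the embryo number in many genes, 33.1% of those tested, and day 15 libraries in 0% (6.18% at an unadjusted p below 0.05). Of the members, ELOVL5 fell with the number at day 11, by 0.069 per 10 numbers on the log2 scale (SE 0.021; limma adjusted p = 0.0177), and this call was lost with each of 3 other scalings. Set against the day 11 embryos numbered 2 to 20, day 15 gave an ELOVL5 change of -0.42 ± 0.06, and against those numbered 22 to 48 a change of -0.17 ± 0.05 (adjusted p = 6.86e-07 and 0.00799). ELOVL3 changed by 4.60 ± 0.30 against the lower and 3.87 ± 0.27 against the higher numbers, and ELOVL7 by 0.45 ± 0.06 and 0.44 ± 0.05. Within the lower numbers ELOVL1 (0.09 ± 0.05, adjusted p = 0.155), ELOVL4 (-0.93 ± 0.43, adjusted p = 0.0595) and ELOVL6 (-0.16 ± 0.07, adjusted p = 0.0507) were not called. Within the higher numbers ELOVL4 alone was not called (-0.85 ± 0.39, adjusted p = 0.0634). All day 15 embryos carry higher numbers than all day 11 embryos, so day and number cannot be told apart.

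The comparison of males with females called none of the 6 members when averaged over the days (4.84% of tested genes were called) and none at day 15 (3.5%). At an unadjusted p below 0.05 they were 2 on average, ELOVL1 and ELOVL7, and 2 at day 15, ELOVL1 and ELOVL5. The share of all tested genes below that unadjusted cut was not computed, so these counts are not read as a result. Limma with voom weights also called 0 of the 6 members in both. At day 11 the main comparison of males with females called 1 of 6, ELOVL7 (3.48% of tested genes). ELOVL7 had 15.9, 18.5 and 20.7 FPKM in the lowest, median and highest day 11 male, against 17.7, 20.8 and 23.8 FPKM in day 11 females, and 4 of 10 males lay below all females. Its male minus female change was -0.21 ± 0.06 at day 11 (SE; limma adjusted p = 0.0471), -0.07 ± 0.06 at day 15 (adjusted p = 0.832) and -0.14 ± 0.04 on average (adjusted p = 0.0547). The day 11 call sits at the threshold: it was lost when any of 18 single libraries was left out and under 9 of 13 other settings (adjusted p 0.0317 to 0.999 over all 13).

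ELOVL7 is the only member on chromosome Z, of which male birds carry a pair and females a single copy, and which birds compensate for in part. Averaged over the days, the 676 tested Z genes had a median male minus female change of 0.48 on the log2 scale, and 65.7% of them were called higher in males. Only 37 Z genes with ELOVL7 itself, 5.47%, had a change at or below that of ELOVL7. Its interval of 2 standard errors, -0.23 to -0.05, did not reach the Z median. The 10 other tested genes within 1 Mb were all called higher in males, by 0.12 to 0.88. The nearest tested genes on either side were DEPDC1B, at 0.47 ± 0.08, and the DNA repair gene ERCC8, at 0.88 ± 0.05.

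**Figure D4:**
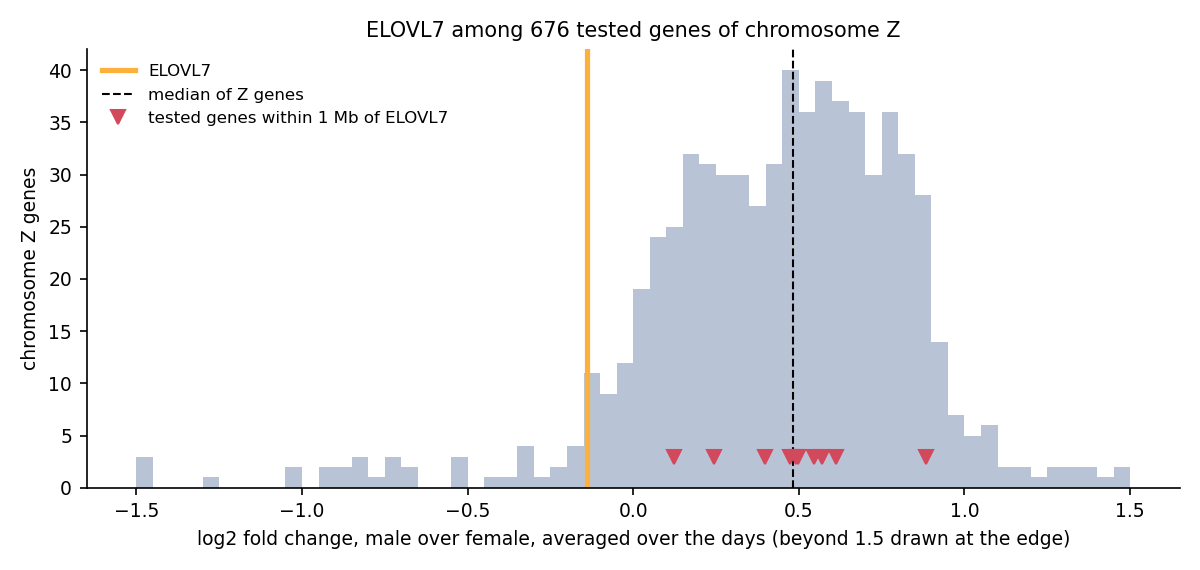
Number of chromosome Z genes by their male over female log2 fold change, averaged over the days, for 676 tested genes. The orange line marks ELOVL7 at -0.14, the dashed line the Z median at 0.48 and the triangles the 10 tested genes within 1 Mb of ELOVL7, all above 0.

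Genes that act with the ELOVL enzymes were counted in the averaged day comparison. The median change of all 15880 tested genes was 0.01, and 30.9% of them rose and 29.3% fell, against which the lists can be read. None of the 5 tested partners of the elongation cycle rose and 2 fell (median -0.15). HSD17B12, the ketoacyl reductase, averaged 16.0 FPKM in day 15 males and 17.4 in day 15 females, against 20.4 and 20.7 FPKM at day 11, a change of -0.26 ± 0.04 (SE; limma adjusted p = 1.46e-07). The dehydratase gene HACD2 changed by -0.32 ± 0.05. HACD3, the most abundant dehydratase gene by FPKM, changed by -0.10 ± 0.07 and was not called, and TECR was not analysed here. HACD4, on chromosome Z, was higher in males by 0.43 ± 0.09 (adjusted p = 0.000738).

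Of 4 tested desaturase genes, which place the double bonds, 3 fell, 0 rose and 1 was not called (median -0.63). In the sexes taken singly, 4 fell in males and 2 in females. Of all tested genes 47.7% were called in males and 45.7% in females, in either direction. Their split into rises and falls was not computed. FADS2, the front-end desaturase that works in turn with ELOVL5 on polyunsaturated chains, had 3.21 FPKM in day 15 males and 3.10 in day 15 females, against 7.499 and 6.58 FPKM at day 11, a change of -1.12 ± 0.09 (limma adjusted p = 2.60e-13). The stearoyl desaturase genes SCD5 and SCD changed by -0.72 ± 0.08 and -0.44 ± 0.13. Of 10 genes that make the fatty acid chains, 2 rose, 4 fell and 4 were not called (median 0.03). Fatty acid synthase, FASN, changed by -0.35 ± 0.05 and the citrate lyase gene ACLY by -0.27 ± 0.04. Of the mitochondrial pathway, MCAT rose by 0.50 ± 0.06 and MECR changed by -0.34 ± 0.06.

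Of 11 tested genes of fatty acid uptake and activation 6 rose, 1 fell and 4 were not called (median 0.18), and in females 4 rose and 1 fell. The transport gene SLC27A6, also on chromosome Z, rose by 1.42 ± 0.19 and the acyl-CoA synthetase genes ACSL5 and ACSL1 by 1.22 ± 0.14 and 0.40 ± 0.06, while ACSBG2 changed by -0.41 ± 0.07 (limma adjusted p at most 8.07e-06). Peroxisomal genes, which shorten very long chains, rose in 7 of 11, fell in 1 and were not called in 3 (median 0.11). In males 4 rose and 0 fell, and in females 4 rose and 1 fell. In either direction, 47.7% of all tested genes were called in males and 45.7% in females. The bifunctional enzyme gene EHHADH had 19.7 FPKM in day 15 males and 19.5 in day 15 females, against 7.97 and 9.16 FPKM at day 11, a rise of 1.25 ± 0.09. The peroxisomal transporter gene ABCD3 rose by 0.39 ± 0.06.

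Of 15 tested ceramide and sphingolipid genes, whose products carry very long chains, 3 rose, 4 fell and 8 did not pass (median 0.03). The serine palmitoyltransferase gene SPTLC2 rose by 0.36 ± 0.07 and the sphingomyelin synthase gene SGMS2 by 0.19 ± 0.05, whereas the ceramide synthase gene CERS1 changed by -0.53 ± 0.11. Of 10 listed skin barrier lipid genes, only 2 were found by name among the genes measured. Both were tested and rose: the lipid transporter gene ABCA12 by 0.60 ± 0.18 and NIPAL4 by 0.39 ± 0.10. In the sexes taken singly, 2 were called in males (47.7% of all tested genes) and 0 in females (45.7%). Triglyceride, wax and lipid droplet genes split evenly, with 5 of 16 higher, 5 lower and 6 not called (median 0.04). The phosphatidate phosphatase gene LPIN1 rose by 1.57 ± 0.13 and AGPAT2 by 0.72 ± 0.06, while the acyltransferase genes MOGAT2 and DGAT2 changed by -1.31 ± 0.19 and -0.69 ± 0.09.

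Among 16 lipogenic regulators 9 rose, 4 fell and 3 were not called (median 0.10). The retinoid receptor gene RXRG changed by -1.70 ± 0.25 and the sterol sensor gene INSIG1 by -0.53 ± 0.08. CEBPB, a transcription factor gene of fat cell differentiation, rose by 0.73 ± 0.10 and the glucose-responsive factor gene MLXIPL by 0.39 ± 0.11. In the sexes taken singly, 5 regulators rose and 4 fell in males, and 7 rose and 3 fell in females. On average over the sexes 30.9% of all tested genes rose and 29.3% fell. In either direction, 47.7% were called in males and 45.7% in females.

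**Figure D5:**
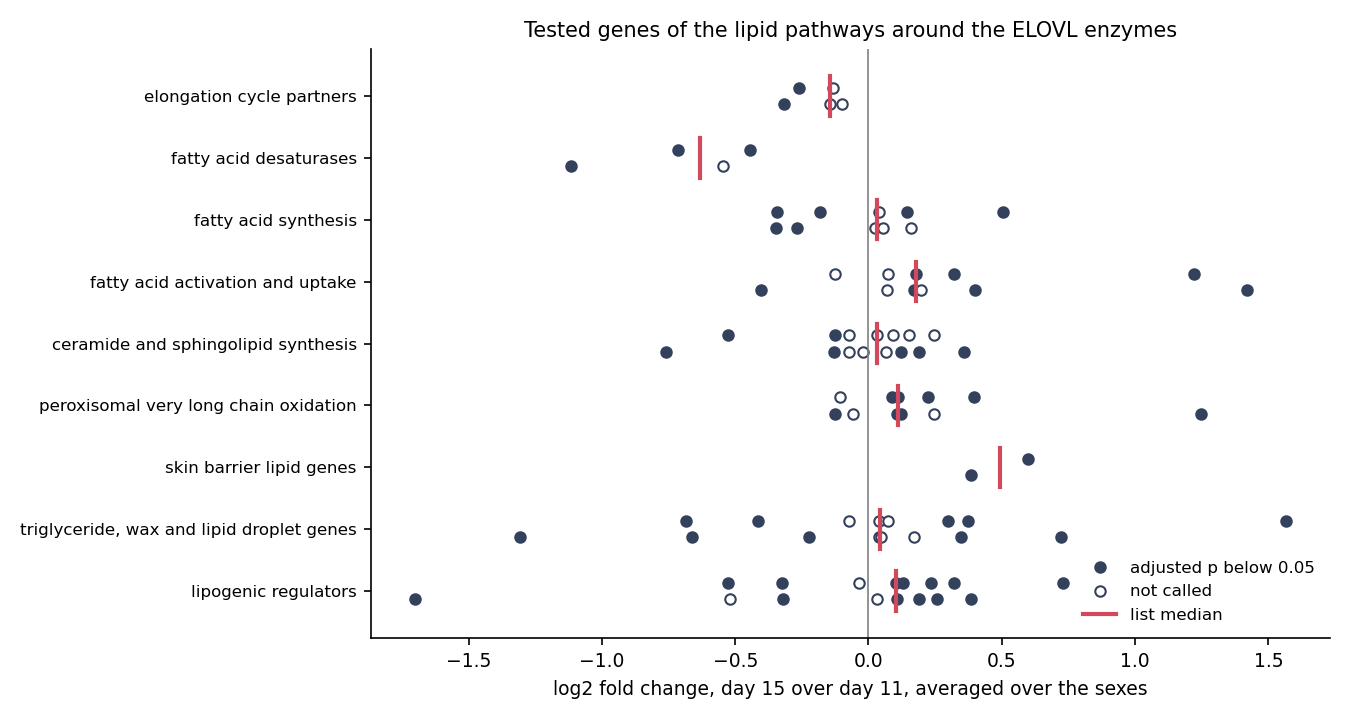
Log2 fold change of day 15 over day 11, averaged over the sexes, for the tested genes of 9 lipid gene lists; filled points passed an adjusted p of 0.05 and red bars mark list medians. The desaturase list lies wholly below 0, with a median of -0.63, while the other lists with 4 or more genes, except the elongation partners, have members on both sides.

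Markers of cell types were counted in the same averaged day comparison, in which 30.9% of all tested genes rose and 29.3% fell. Of 11 tested epithelial marker genes 8 rose, 1 fell and 2 were not called (median 0.60). Their summed level was 2375 to 3015 FPKM in day 15 males and 2326 to 3282 in day 15 females, against 1801 to 2277 in day 11 males and 1906 to 2543 in day 11 females. Keratin KRT14 rose by 1.54 ± 0.10 and the plakophilin gene PKP1 by 1.31 ± 0.13. KRT5 stood at 0.188 FPKM in day 15 males and 0.400 in day 15 females, against 0.150 and 0.143 FPKM at day 11, and was not tested.

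The 7 adipocyte markers summed to 86.9 to 134 FPKM in day 15 males and 74.3 to 114 in day 15 females, against 31.5 to 50.0 in day 11 males and 24.5 to 54.2 in day 11 females. Of these markers 3 rose, 2 fell and 2 were not called (median 0.04, against 0.01 for all tested genes). The summed level weighs abundant genes most and does not show a rise of the list as a whole. The adipokine gene ADIPOQ rose by 3.51 ± 0.14, while the fat droplet gene PLIN1 averaged 0.812 to 0.925 FPKM in all groups and CIDEC at most 0.648 FPKM. Of all tested genes 30.9% rose and 29.3% fell, against which these short lists have to be read. Macrophage markers fell in 8 of 9 and rose in 0, and endothelial markers rose in 6 of 9 and fell in 2. Stromal and smooth muscle markers rose in 5 of 12 and fell in 4. Liver and yolk sac markers and neural markers each fell in 3 of 5 tested and rose in 0, and erythroid markers fell in 3 of 9 and rose in 2. The part that cell make-up had in the changes of the ELOVL genes was not tested.

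With the group means removed, pairs of members were compared over the 40 libraries. None of 15 pairs passed the Benjamini-Hochberg adjustment in a permutation test of Pearson's r or Spearman's rho. This does not show that the members vary independently of each other. ELOVL1 with ELOVL5 had an unadjusted permutation p of 0.0225 (r = 0.362, adjusted p = 0.338; rho = 0.353, adjusted p = 0.197), and its r was 0.252 without the 2 farthest libraries. The strongest by rank was ELOVL3 with ELOVL7 (r = 0.315, permutation p = 0.0503, adjusted p = 0.378; rho = 0.447, permutation p = 0.00562, adjusted p = 0.0843). Its r was 0.513 without the 2 libraries farthest from the median of ELOVL3. Within groups r was 0.555 in day 15 males and 0.858 in day 15 females, against 0.0862 in day 11 males and -0.297 in day 11 females.

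ELOVL3 followed the epithelial markers from library to library. The r of ELOVL3 with the mean of the 11 epithelial markers was 0.599 and the rho 0.653 (40 libraries, group means removed; permutation adjusted p = 0.00192 and 0.00144 over 48 relations of 6 members with 8 marker lists). Without the 2 libraries farthest from the median of the marker mean, r was 0.584. Over all 40 libraries with the slope on embryo number also removed, r was 0.529. It was positive in every group, with 0.838 in day 15 males, 0.672 in day 15 females, 0.576 in day 11 males and 0.472 in day 11 females. With the stromal and smooth muscle markers the r of ELOVL3 was -0.341 (rho = -0.388; adjusted p = 0.215 and 0.149), and -0.566 with the number slope removed; it was -0.883 in day 15 males, -0.483 in day 15 females, -0.155 in day 11 males and -0.120 in day 11 females. With the neural markers it was 0.393 (rho = 0.445; adjusted p = 0.0658 and 0.110) and positive in every group, from 0.127 to 0.677.

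ELOVL1 ran against the endothelial markers (r = -0.623, adjusted p = 0.0326; rho = -0.356, adjusted p = 0.169) and the neural markers (r = -0.511, adjusted p = 0.0326; rho = -0.363, adjusted p = 0.149). Without the 2 libraries farthest from the median of each marker mean, r was -0.243 and -0.299. Without replicate 83 of the day 15 females it was -0.437 and -0.326. Both were negative in every group, the endothelial r from -0.822 to -0.182 and the neural r from -0.737 to -0.159. With the liver and yolk sac markers r was 0.549 (adjusted p = 0.0328; rho = 0.399, adjusted p = 0.149), and 0.237 without the 2 farthest libraries. With the macrophage markers it was 0.465 (adjusted p = 0.0353; rho = 0.449, adjusted p = 0.110), and 0.362 without the 2 farthest; it lay between 0.581 and 0.604 in 3 groups and at -0.0158 in day 11 males.

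The genes most like ELOVL3 over the 40 libraries, by Pearson's r of log2 values with group means removed among 11202 other named genes, were TACC1 (0.764), LHFPL5 (0.762), PIWIL1 (0.760), NGEF (0.760) and WNT6 (0.735). Between the days TACC1 changed by 1.19, LHFPL5 by 1.80, PIWIL1 by 0.91, NGEF by 0.60 and WNT6 by 0.51 on the log2 scale. Among those most like ELOVL1 were SLC39A11 (0.815), GADD45B (0.801), DBNDD2 (0.796) and TMEM254 (0.794). These likenesses are descriptions and carry no test.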

How the data were processed

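The authors deposited 1 table of 26152 genes by 40 libraries. Per the submitters' processing notes HISAT2, HTSeq and the build GRCg6a were used, and per the labels' protocols a NEBNext Ultra kit. For the tools, versions and strand setting were not given in the sources used here. Although the deposited table is named for raw counts, its values are FPKM. In 24356 annotated genes 100% of values were whole reads once multiplied by the mean transcript length and the library total they imply. The tolerance was 0.05, and it widened in proportion to the count for the highest counts, where this check tells little. Columns without a sample numbered 0, and 0 pairs of libraries were identical.

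Libraries were brought to one scale by trimmed log ratios without weights (30% of ratios and 5% of levels trimmed at each end; factors 0.921 to 1.07) and taken as log2(FPKM + 0.1). The filter asked for 0.5 FPKM or more in 10 or more libraries and kept 15880 genes, removing 10272. Group means were estimated in limma 3.58.1, under R 4.3.3 with statmod 1.5.0, trend and robust options on. Adjustment was by Benjamini-Hochberg over all tested genes at 0.05. The fit was also run on simulated counts, with independent libraries and far fewer changed genes than in these data. That run does not check the fit under changes this widespread. The count model planned for counts was not used, since the unit is FPKM; voom weights on the implied reads were an added alternative and called 8986 genes between the days. Single relations used two-sided permutation tests within groups (100000 resamples) or exact sign flips (Python 3.11.15, numpy 2.4.6, pandas 2.3.3, SciPy 1.17.1). Nothing in the labels beyond the separate numbers states that libraries came from separate embryos, so p-values measure the spread between these samples.

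The members, gene lists and tests were chosen with earlier results of these data known. Named genes are all 7 members, up to 4 called genes of each lipid list with the largest averaged day change whose average log2 level was not below 0, step enzymes, defining cell markers and the 5 genes most like ELOVL1 and ELOVL3; a result that this rule took is not reported here. Neighbours of ELOVL7, Z-linked list members, HACD3 and the relations with marker lists were added after values were seen. Alternatives were other pseudocounts (1 and 0.01), filters, scalings and moderation, embryo number as a covariate or in 2 ranges, and leaving out each library. Each run without a library estimated scaling, spread and adjustment anew, so a library could move a call between groups it was not in.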

Additional observations from a re-analysis of the deposited data

Results flagged for a closer look

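Of 24 groups of 10 values (6 members in 4 groups), 3 held a library whose gap to the nearest other library exceeded Dixon's 95% limit for a group of 10; chance gives about 1 in 20. ELOVL1 was high in replicate 83 of the day 15 females, at 104.8 FPKM, where the other 9 libraries had 73.0 to 89.0 FPKM. In the same library ELOVL4 was at 0.0161 FPKM, from 1 read, and ELOVL7 at 21.98 FPKM, both the lowest of the group, and ELOVL6 at 12.6 FPKM was the highest. ELOVL6 was low in another day 15 female, at 8.43 FPKM, where the others had 10.4 to 12.6 FPKM. ELOVL6 was also low in replicate 14 of the day 11 males, at 8.89 FPKM, where the others had 11.1 to 14.2 FPKM.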

How the results depend on the processing

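The rise of ELOVL3 and ELOVL7 and the fall of ELOVL5 in the averaged day comparison kept their direction and call under all 13 alternatives and without any of the 40 libraries, with log2 ranges over the alternatives of 2.75 to 4.70, 0.41 to 0.46 and -0.42 to -0.17. The number of members called between the days was 3 in place of 6 with day 11 embryos 2 to 20 only. The number called between the sexes on average was 1 in place of 0 with quantile normalization, and 0 to 1 when single libraries were left out. At day 11 it was 0 in place of 1 with a pseudocount of 1, no filter, FPKM as deposited, TPM scaling, no trend, embryo number as a covariate, either range of day 11 numbers and voom. The interaction called 4 genes, 8 with a pseudocount of 1 or no filter, 2 with a stricter filter or voom, and 0 with day 11 embryos 22 to 48 only. Members following embryo number at day 11 numbered 1, against 0 with FPKM as deposited or quantile normalization and 2 with TPM scaling. The cause of these moves was not tested.

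Signs turned only in values that were not called. Male minus female at day 11 became -0.00242 for ELOVL4 with a pseudocount of 1, and with embryos 22 to 48 only 0.0235 for ELOVL1, -0.32 for ELOVL4, -0.0182 for ELOVL5 and 0.0219 for ELOVL6. Over single libraries left out it ran from -0.10 to 0.33 for ELOVL3 and from -0.15 to 0.12 for ELOVL4. The ELOVL3 interaction was -0.13 with a pseudocount of 0.01, -0.20 with embryos 2 to 20 only, -0.24 with voom and -0.0738 to 0.36 over single libraries; with embryos 2 to 20 only the ELOVL4 and ELOVL6 interactions were -0.0857 and 0.0497. The day 11 slope per 10 numbers was 0.0027, 0.033 and 0.013 for ELOVL1 (as deposited, TPM scaling, quantile) and -0.0312 for ELOVL4 (quantile). Without replicate 83 of the day 15 females r was 0.034 for ELOVL1 with ELOVL4, -0.043 for ELOVL5 with ELOVL6 and 0.018 for ELOVL5 with ELOVL7.

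No paired analysis was possible because every library carries its own number and the groups share none. Depth limits ELOVL2, ELOVL3 at day 11 and ELOVL4, which rest on few reads. For the interaction, an adjusted p of 1.00 does not show that the sexes change alike.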
